A study of Arabidopsis thaliana with 4 samples.

Results

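The miRNAs miR173 and miR390, which set off the production of trans-acting siRNAs, and miR391, a sequence relative of miR390, were described in whole seedlings of Arabidopsis thaliana. They are the probes ath-miR173, ath-miR390a and ath-miR391, taken by name, and make up 3 of the 213 miRNAs on the arrays. Each miRNA had 12 repeat spots per array. The tested plants expressed the cDNA of ABR17, an abscisic acid-responsive gene, and were set against wild type. Both genotypes were grown on MS medium with 100 mM NaCl or with 0 mM NaCl for 2 weeks, though the same protocol also names 7 days. The 4 arrays are called ABR17_salt, ABR17_control, WT_salt and WT_control, where control means no added NaCl. Neither the promoter of the transgene nor the number of lines is stated in the labels, and the arrays list no probe for ABR17, so the genotype labels could not be checked. The design text speaks of 3 biological replicates, but each group had 1 array. No test between groups was therefore made, and every error below is the spread of repeat spots within an array, which covers spotting and scanning and not the spread between seedlings.

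Trans-acting siRNAs (tasiRNAs) are made when a miRNA guides the cutting of a non-coding TAS transcript, which RDR6 then copies into double-stranded RNA and DCL4 dices in steps from the cut. The miRNA miR173 acts with AGO1 on the TAS1 and TAS2 transcripts, whose siRNAs act on genes of the pentatricopeptide repeat (PPR) family. The miRNA miR390 acts with AGO7 on TAS3, whose siRNAs repress the auxin response factors ARF2, ARF3 and ARF4 and so bear on leaf polarity, the change from juvenile to adult leaves and lateral root growth. miRNAs that are 1 base longer than the usual length are known as frequent triggers of such secondary siRNAs.

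The sequences listed for the probes show how the 3 miRNAs relate, with the seed (bases 2 to 8) in capitals.
miR173: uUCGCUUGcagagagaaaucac
miR390a: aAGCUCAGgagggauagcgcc
miR391: uUCGCAGGagagauagcgcca
The first is 22 bases long and the others are 21. In RefSeq's annotation of TAIR10.1 the genes are AT3G23125 (MIR173), AT2G38325 (MIR390a) and AT5G60408 (MIR391). MIR390b yields the same mature miRNA as MIR390a, so the probe reads both genes. No other probe on the array shared any of the 3 seeds. The miR391 sequence, moved by 1 base, matched miR390a over 20 aligned bases with 4 mismatches. Counted from the 5′ end of miR390a, these were A2U, G3U, U5G and G12A, of which the first 3 lie in the miR390a seed. The nearest other sequence to miR173 was that of miR156g, with 7 mismatches over 20 aligned bases. The 5′ base of miR390a is A, a base found at the start of 35 of the 213 listed sequences (16.4%), against U at the start of 149 (70.0%). Of the 26 listed sequences with 22 bases, 6 were detected on at least 1 array, and miR173 and miR167d were the 2 detected on all 4.

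The arrays differed in brightness, which bears on every comparison between them. Blank spots averaged an intensity of 86.5 on ABR17_salt, 111 on ABR17_control, 84.8 on WT_salt and 231 on WT_control. Spots of the control probe PUC2MM read 4019 on ABR17_salt, 1176 on ABR17_control, 1844 on WT_salt and 11421 on WT_control. By PUC2MM, ABR17_salt was thus brighter than ABR17_control and WT_salt, whereas its blanks were dimmer than those of ABR17_control. Detection required 50% or more of a miRNA's spots to exceed a threshold set at 3 blank SD over the mean of the blanks, which came to 98.3, 151, 101 and 298 in the same order. By this rule 30 of the 213 miRNAs were detected on all 4 arrays and 33 more on some of them.

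The spots of miR173 lay far above this threshold on every array. On ABR17_salt they read from 433 to 872 with a median of 747. On ABR17_control they read from 365 to 473 with a median of 427. The 2 arrays of the transgenic plants thus differed in brightness for miR173, with only the lowest spot on ABR17_salt inside the range of ABR17_control. On WT_salt the spots read from 393.4 to 580 (median 504), and on WT_control from 791 to 1037 (median 891). The raw values on WT_control were the highest of all, as were its blanks. Relative to the blank mean, miR173 was 8.52-fold brighter on ABR17_salt, 3.81-fold on ABR17_control, 5.83-fold on WT_salt and 3.88-fold on WT_control. By this measure both salt arrays stood above both control arrays. With the blank mean subtracted instead, miR173 read 651 on ABR17_salt, 312 on ABR17_control, 410 on WT_salt and 666 on WT_control. WT_control then stood above WT_salt, so the order in wild type depended on the measure. In RNA of whole seedlings, fewer cells with a miRNA and less of it per cell cannot be told apart.

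The spots of miR390a were also above the threshold throughout. They read from 293 to 371 on ABR17_salt (median 331) and from 330 to 398 on ABR17_control (median 368). The 2 ranges overlapped. On WT_salt they read from 214 to 593 (median 258), where the highest spot stood apart from the next at 296. On WT_control they read from 706 to 953 (median 816). Relative to the blank mean, miR390a was 3.82-fold brighter on ABR17_salt, 3.30-fold on ABR17_control, 3.32-fold on WT_salt and 3.49-fold on WT_control, a narrower range than that of miR173.

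The probe for miR391 was dim and was detected on 2 of the 4 arrays. Its spots read from 98.9 to 120 on ABR17_salt, where 12 of 12 passed the threshold. On ABR17_control they read from 98.5 to 112, where 0 of 12 passed and the mean of 104 lay below the blank mean of 111. On WT_salt they read from 91.0 to 110, and 4 of 12 passed. On WT_control they read from 304 to 436, and 12 of 12 passed. Relative to the blank mean miR391 read 1.28-fold on ABR17_salt, 0.937-fold on ABR17_control, 1.17-fold on WT_salt and 1.54-fold on WT_control. By this measure ABR17_salt and WT_control were the 2 brighter arrays, for miR391 as for miR390a. For miR391 the dimmest was ABR17_control. For miR390a the dimmest array was not settled, at 3.30-fold on ABR17_control and 3.32-fold on WT_salt, where the mean includes the spot at 593. How much of the miR391 signal comes from the related miR390 was not tested.

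**Figure D1:**
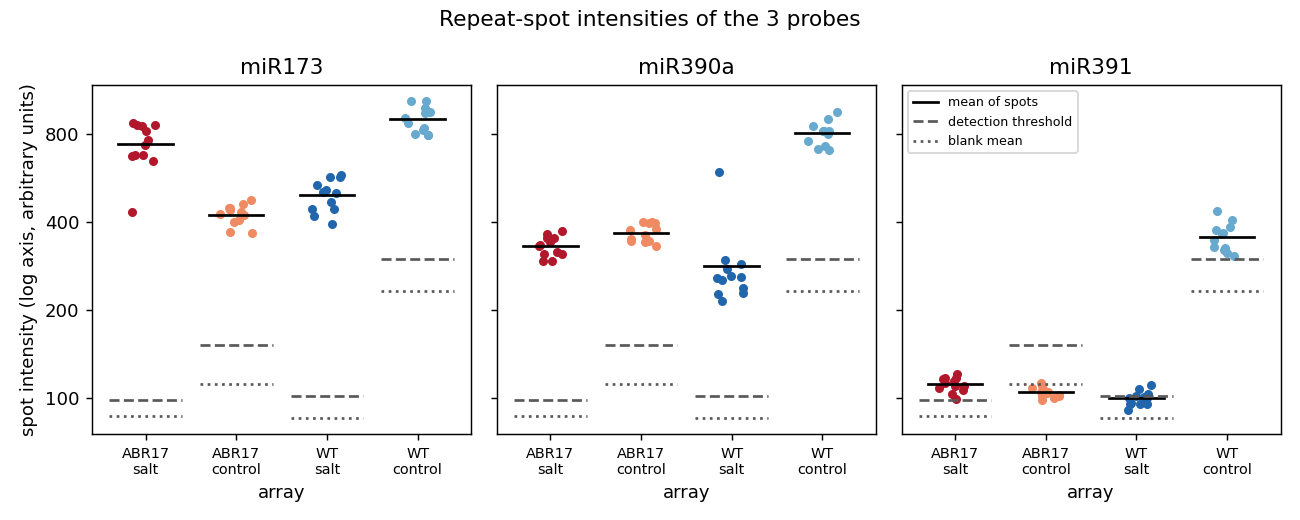
Intensity of the 12 repeat spots of miR173, miR390a and miR391 on each array (log axis, arbitrary units), with the mean of the spots, the blank mean and the detection threshold of that array. All spots of miR173 and miR390a lie above the threshold on all 4 arrays, while those of miR391 on ABR17_control lie below it (0 of 12 passed) and those on WT_control just above it.

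For comparisons between arrays the spot intensities were background corrected by normexp, put on the log2 scale and averaged for each miRNA, and the 213 averages were quantile normalised between arrays. To be counted, a miRNA detected on either array had to show a difference of 2-fold or more (a size of 1 in log2 units) with the repeat spots of the arrays apart. The authors' deposited values have no repeat spots, so counts from them below required the size without the spots. The normalised log2 level of miR173 was 9.51 ± 0.30 on ABR17_salt, 8.68 ± 0.13 on ABR17_control, 9.11 ± 0.20 on WT_salt and 8.42 ± 0.17 on WT_control (SD of 12 spots). In this order of levels, ABR17_salt, WT_salt, ABR17_control and WT_control, the spots of each neighbouring pair of arrays overlapped. The levels of miR390a were 8.46 ± 0.12, 8.46 ± 0.12, 8.68 ± 0.41 and 8.00 ± 0.16 on ABR17_salt, ABR17_control, WT_salt and WT_control. Neighbours in its order overlapped too. By raw mean intensity, miR173 ranked 10 of 213 on ABR17_salt, 15 on ABR17_control, 14 on WT_salt and 18 on WT_control, whereas miR390a ranked 17, 17, 15 and 22 in that order.

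Per its title, the study concerns miRNA regulation in ABR17 plants under salt stress, and its groups give 4 comparisons. Salt in the transgenic plants, the comparison of ABR17_salt with ABR17_control, gave a difference of under 2-fold in miR173 and a tie of rank in miR390a. The difference of miR173 was 0.83 ± 0.09 on the log2 scale (SE of repeat spots, 1.77-fold), and its spots overlapped through the low spot on ABR17_salt. The authors' deposited table gives miR173 as 723 on ABR17_salt and 357 on ABR17_control, 2.03-fold apart. The direction held in all 13 alternative settings, with values from 0.39 to 1.02. The PUC2MM spots also differed between these arrays, at 4019 on ABR17_salt and 1176 on ABR17_control, and the part of this was not tested. In the counts of alternatives here and below, detection at 6 blank SD cannot change a difference: it repeats the main value or gives none. For miR173 and miR390a, quantile normalisation over the detected miRNAs alone also repeated the main value in every comparison. Leaving out dim miRNAs keeps the ranks of bright ones, so this is no separate agreement. The difference of miR390a was 0.00 ± 0.05, which under quantile normalisation is no measured equality, and ran from −0.58 to 0.06 over the alternatives. For miR390a the authors' deposited table holds 276 on ABR17_salt and 317 on ABR17_control. None of the 3 miRNAs was counted, beside 1.69% of the 59 miRNAs tested. With the authors' deposited values miR173 passed the size of 1 (1.02), where 5.08% of the miRNAs were higher by 2-fold or more. The level of miR391 differed by 0.30 ± 0.04 and by 1.30 in the authors' deposited values (2.46-fold), with alternatives from −0.09 to 2.45. It could not be counted, because ABR17_control did not detect it and its level on ABR17_salt did not exceed the lowest level detected on ABR17_control.

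Salt in the wild type, WT_salt against WT_control, gave differences of miR173 and miR390a whose direction depended on how the arrays were scaled. After quantile normalisation miR173 differed by 0.69 ± 0.08 and miR390a by 0.68 ± 0.13, in both with no overlap of spots. Over the alternatives miR173 ran from −0.89 to 0.85 and was negative in 3 of 13. The value of miR390a ran from −1.62 to 0.79 and was negative in 7 of 13. In the authors' deposited table miR173 read 646 on WT_salt and 358 on WT_control (1.80-fold), and miR390a read 271 on WT_salt and 276 on WT_control (0.983-fold). The difference of miR391 was a bound, since it was not detected on WT_salt: it was lower by at least 0.59 on the log2 scale (−0.59, with −0.62 ± 0.08 between the measured levels 6.24 on WT_salt and 6.86 on WT_control). It stayed negative in the 12 alternatives that gave a value. None of the 3 was counted here, beside 8.62% of 58 miRNAs tested. Other scalings did count miR391 as lower: with the blank mean subtracted (as were 15.5% of the miRNAs), without normalisation (29.3%), with scaling on 5S rRNA (41.4%, miR390a among them) and in the authors' deposited values (20.7%). Blank spots moved the same way as miR391, at 84.8 on WT_salt and 231 on WT_control, and their part in the result was not tested.

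In the ratio of miR173 to miR390a within an array, a log2 shift common to all spots of that array cancels. A common factor of brightness does not cancel fully, because the background correction adds an offset of 50 to each intensity. The 12 spots of miR173 each lie beside a spot of miR390a in the same row, so a ratio was taken for each adjacent pair after background correction and without normalisation between arrays. This measure was chosen after the values were seen. The log2 ratio was 1.20 ± 0.31 on ABR17_salt, 0.23 ± 0.13 on ABR17_control, 0.92 ± 0.49 on WT_salt and 0.19 ± 0.06 on WT_control (SD of 12 pairs). On ABR17_salt the pairs ran from 0.24 to 1.39 and on ABR17_control from 0.03 to 0.46. On WT_salt they ran from −0.62 to 1.21 and on WT_control from 0.08 to 0.27. A single pair on each salt array lay within or below the range of its control. On ABR17_salt this was the pair of the low miR173 spot (433 beside 371 for miR390a), and on WT_salt that of the high miR390a spot (393.4 for miR173 beside 593). Without the pair farthest from the median on each array, the other 11 ran from 1.15 to 1.39 on ABR17_salt, from 0.03 to 0.36 on ABR17_control, from 0.92 to 1.21 on WT_salt and from 0.11 to 0.27 on WT_control. The pairs left out on the salt arrays were those that had reached the controls, so the gap between salt and control among the other 11 follows from this choice.

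**Figure D2:**
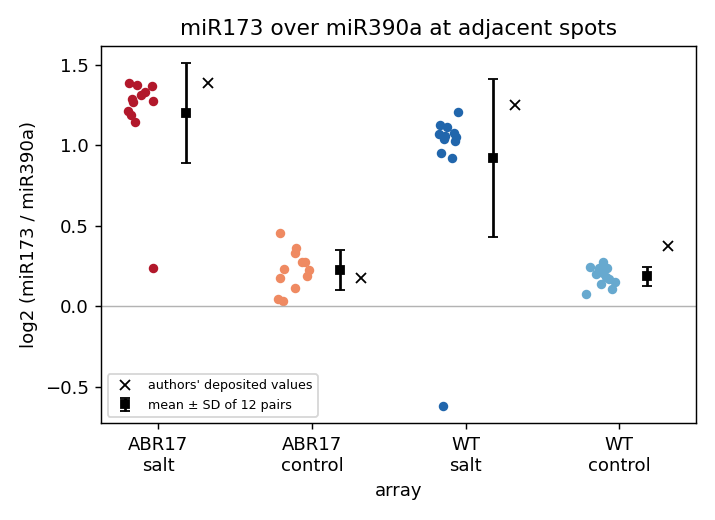
Log2 ratio of miR173 to miR390a at the 12 adjacent spot pairs of each array, with the mean and SD of the pairs (squares) and the ratio of the authors' deposited values (crosses). The mean is 1.20 on ABR17_salt and 0.92 on WT_salt, against 0.23 on ABR17_control and 0.19 on WT_control, and 1 pair on each salt array falls far below the rest.

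With salt the ratio was thus higher by 0.97 ± 0.10 in the transgenic plants (SE of pairs, 1.97-fold) and by 0.73 ± 0.14 in wild type (1.66-fold). From the authors' deposited table, the ratio of miR173 to miR390a was 2.62 on ABR17_salt, 1.13 on ABR17_control, 2.38 on WT_salt and 1.30 on WT_control, a log2 change with salt of 1.22 in the transgenic plants and 0.87 in wild type. In the transgenic plants the change lay between 0.83 and 1.22 under all 7 alternatives. In wild type it was 0.01 after quantile normalisation, which sets the distance between ranks, and from 0.60 to 0.93 under the other 6. Changes of this size were common among miRNA pairs: of the 435 pairs of the 30 miRNAs detected on all arrays, 20.5% changed at least as much in the transgenic plants and 47.6% in wild type. A change at least as large in both genotypes and in 1 direction was found for 13 pairs (2.99%), this pair included. With no offset and the blank mean subtracted, log2 ratios were 1.39 on ABR17_salt, 0.28 on ABR17_control, 1.14 on WT_salt and 0.21 on WT_control. A response to brightness that is not linear and differs between arrays would not cancel in such a ratio, and its part in the result was not tested.

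The transgene without salt, ABR17_control against WT_control, gave no difference with a settled direction for miR173 and miR390a. The difference of miR173 was 0.26 ± 0.06 with overlapping spots, negative in 7 of 13 alternatives, and in the authors' deposited table it read 357 on ABR17_control and 358 on WT_control. That of miR390a was 0.46 ± 0.06, again with overlap, negative in 6 of 13, and 317 on ABR17_control against 276 on WT_control in the authors' deposited table. The ratio of miR173 to miR390a differed by 0.04 ± 0.04 between these arrays, a change that 95.2% of the miRNA pairs reached or passed. For miR391, not detected on ABR17_control, the normalised level was 6.25 on ABR17_control and 6.86 on WT_control, and no bound could be given because the lowest level detected on ABR17_control was no lower than that of miR391 on WT_control. None of the 3 was counted, beside 10.3% of 39 miRNAs tested. Without normalisation miR390a was counted lower, as were 30.8% of the miRNAs.

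The transgene under salt, ABR17_salt against WT_salt, compared arrays with nearly the same blank level (86.5 and 84.8). Their spots of the control probe PUC2MM were less alike, at 4019 on ABR17_salt and 1844 on WT_salt, and the part of this was not tested. The difference of miR173 was 0.40 ± 0.10 (1.32-fold, overlapping spots) and was positive in all 13 alternatives, from 0.14 to 0.66. For miR390a it was −0.22 ± 0.12, with both signs among the alternatives (−0.29 to 0.38). The ratio of miR173 to miR390a was higher on ABR17_salt by 0.28 ± 0.17, with overlapping pairs, a change that 50.8% of the miRNA pairs reached or passed. The level of miR391 was higher on ABR17_salt by a bound of 0.28 ± 0.04 after quantile normalisation, with overlapping spots. Between the measured levels the difference was 0.31, and over the alternatives it ran from −0.25, with scaling on the 75th percentile of the miRNAs detected on all arrays, to 1.40. It read 35.3 on ABR17_salt and 14.1 on WT_salt in the authors' deposited table (2.51-fold). By those values 9.68% of the miRNAs were higher by 2-fold or more. After quantile normalisation none of the 3 was counted, beside 0% of 62 miRNAs tested.

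**Figure D3:**
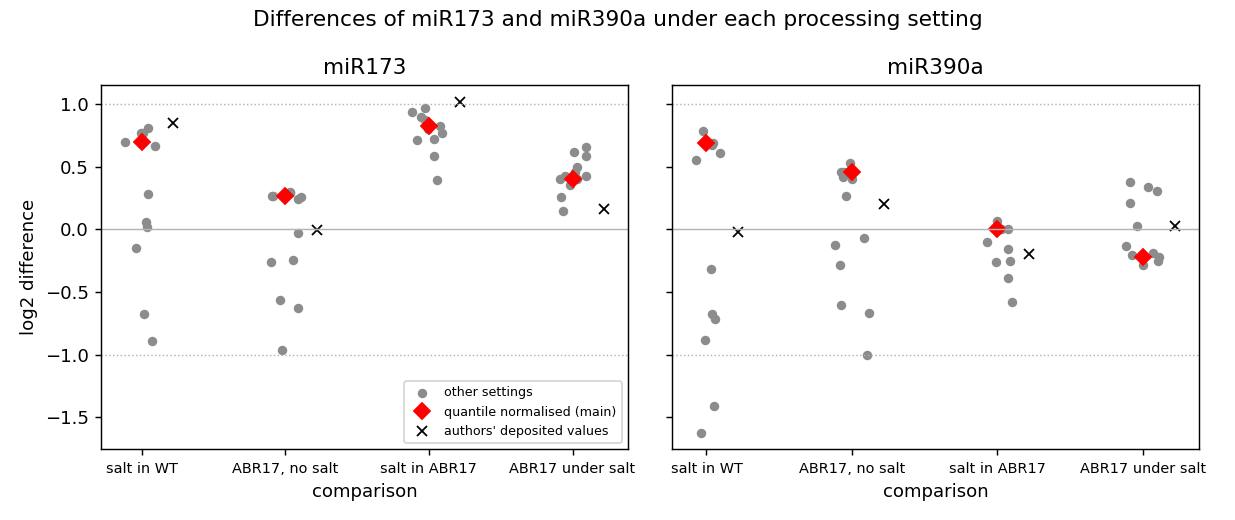
Log2 differences of miR173 and miR390a in the 4 comparisons under quantile normalisation (red diamonds), the other settings (grey points) and the authors' deposited values (crosses), with dotted lines at a size of 1. For miR173 the salt difference in ABR17 plants (0.39 to 1.02) and the transgene difference under salt (0.14 to 0.66) stay above 0 in every setting, whereas both comparisons with WT_control spread across 0.

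Set against each other, the salt responses of miR173 differed between the genotypes by 0.13 (ABR17 minus wild type), positive in all 13 alternatives (0.11 to 1.55). The responses of miR390a differed by −0.68, with 6 alternatives positive and a range from −0.79 to 1.31. Neither reached the size of 1, beside 26.7% of the 30 miRNAs detected on all arrays. Both did without normalisation, as did 50% of the miRNAs, and with scaling on 5S rRNA, as did 36.7%. The change of the ratio with salt differed by 0.24 ± 0.17 between the genotypes.

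Other miRNAs of the small RNA pathways were followed as 4 lists by family number. The list of tasiRNA triggers had 4 probes, with miR391 included only as a sequence relative of miR390. Of these, miR173, miR390a and miR391 were detected somewhere and miR828, the trigger of TAS4, nowhere. The 2 members detected on both arrays, miR173 and miR390a, had a median difference of 0.69 for salt in wild type, 0.41 for salt in ABR17 plants, 0.36 for the transgene without salt and 0.09 for the transgene under salt. The median over all miRNAs detected on both arrays was 0.00, 0.00, 0.00 and −0.06. After quantile normalisation no member of any of the 4 lists was counted in any comparison. Of all miRNAs tested, 1.69% were counted for salt in ABR17 plants and 8.62% for salt in wild type. For the transgene the shares were 10.3% without salt and 0% under salt. With so few members a count of 0 is near those shares. Under the alternatives some list miRNAs were counted, most often miR167a and miR167c for salt in wild type.

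The second list held miRNAs that target genes which also give or receive secondary siRNAs. Here 4 of 5 probes were detected, and miR400, which targets PPR genes, was not. The probe miR161.1, whose targets are PPR genes as are those of the TAS1 and TAS2 siRNAs, was bright everywhere: its log2 levels were 10.30 on ABR17_salt, 10.15 on ABR17_control, 10.30 on WT_salt and 10.21 on WT_control. Its salt difference was 0.15 ± 0.08 in ABR17 plants and 0.09 ± 0.10 in wild type, both with overlapping spots. The overlapping product miR161.2 was detected on ABR17_salt alone, as was miR393a, which targets auxin receptors. The probe for miR472, which targets NBS-LRR resistance genes, was detected on both salt arrays and not on the controls, where thresholds were higher. Its log2 levels were 6.46 on ABR17_salt, 6.55 on ABR17_control, 6.42 on WT_salt and 6.38 on WT_control.

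Of the silencing machinery list, 3 of 3 probes were detected. The probe miR168a, which targets AGO1, the partner of miR173, had log2 levels of 9.82 on ABR17_salt, 9.82 on ABR17_control, 9.59 on WT_salt and 9.82 on WT_control. Its salt difference was a tie of rank in ABR17 plants and −0.23 ± 0.08 in wild type. Detected on the salt arrays alone, where thresholds were lower, were miR162a (DCL1) and miR403 (AGO2). Their differences between the transgenic and wild-type salt arrays were 0.01 ± 0.05 and 0.14 ± 0.04, with overlapping spots. On ABR17_salt, ABR17_control, WT_salt and WT_control the log2 levels of miR162a were 6.61, 6.62, 6.60 and 6.49. Those of miR403 were 6.67, 6.36, 6.53 and 6.46.

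The list of other regulators of auxin response factors had 4 of 4 probes detected on all arrays. The probe miR167a, which targets ARF6 and ARF8, had a log2 level of 8.35 on ABR17_salt and 9.11 on ABR17_control, a difference of −0.76 ± 0.06 with no overlap of spots. This difference, opposite in sign to that of miR173 on the same 2 arrays, was negative in all 13 alternatives. The probe miR167d differed by −0.35 ± 0.05 there, again negative in all 13, and miR167c by −0.07 ± 0.04. The probe miR160a, which targets ARF10, ARF16 and ARF17, differed by 0.10 ± 0.05. In wild type the salt differences of this list were 0.33 ± 0.06 (miR160a), 0.16 ± 0.14 (miR167d), 0.00 ± 0.06 (miR167a, a tie of rank) and −0.29 ± 0.12 (miR167c). Of these, only that of miR167c kept its sign in all 13 alternatives. That of miR167a ran from −2.11 to 0.00 over the alternatives and was negative in 10. In 5 alternatives miR167a and miR167c were each counted as lower, and miR167d was in 2. Those 5 included no normalisation and scaling on 5S rRNA, where 29.3% and 41.4% of the miRNAs were counted as lower.

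**Figure D4:**
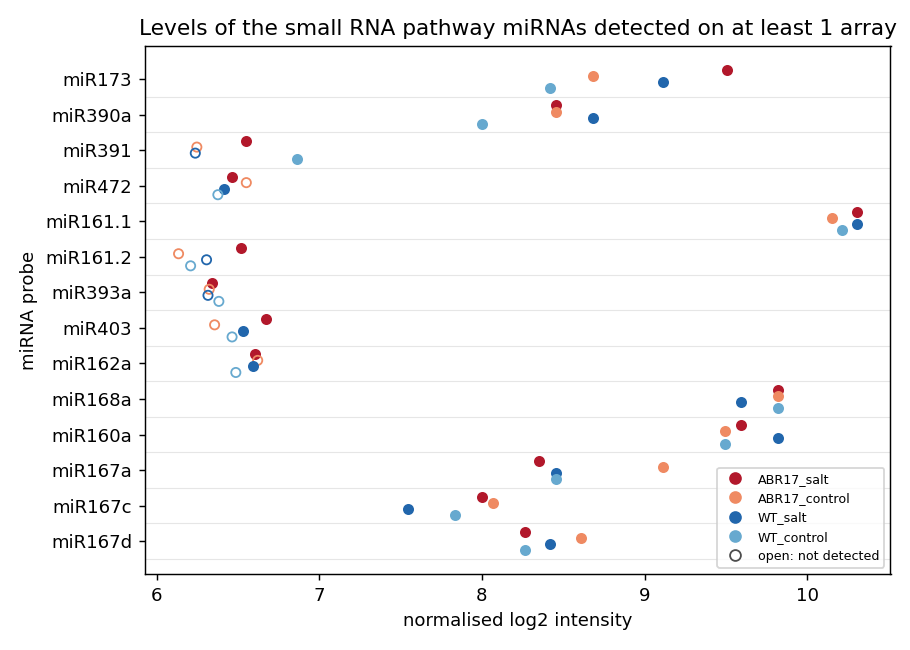
Normalised log2 intensity of the 14 probes of the 4 lists detected on at least 1 array, coloured by array, with open circles where the probe was not detected. The probes miR173, miR390a, miR161.1, miR168a, miR160a and the 3 of miR167 are filled on all 4 arrays, and the salt arrays of miR173 (9.51 and 9.11) lie to the right of its control arrays (8.68 and 8.42).

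Profiles over the 4 arrays were compared among the 30 miRNAs detected on all of them, by the root mean square difference of normalised log2 levels after each miRNA's own mean was removed. Nearest to miR173 were miR390a (0.31), miR171a (0.33) and miR824 (0.36). Nearest to miR390a were miR157a (0.16), miR408 (0.17) and miR160a (0.18). In the authors' deposited values these miRNAs ranked 13, 10 and 17 of 29 in likeness to miR173, and 9, 14 and 15 of 29 in likeness to miR390a. The order of likeness thus differed between the 2 sets of values, and the cause was not tested.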

How the data were processed

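MiRNA levels were measured on 4 single-colour Cy3 arrays by a service provider, from small RNA-enriched total RNA, per the labels' protocols. The deposited spot files give the mean density of each spot, a linear intensity with no background subtracted, per the file headers. The authors also deposited 1 processed intensity per miRNA and array. No label or header states how those values were background corrected or scaled. Groups were taken from the labels.

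The 3968 spots of each array (2556 for miRNAs, 1120 blank) were corrected by normexp in limma 3.58.1 (R 4.3.3, offset 50), transformed to log2, averaged over repeat spots and quantile normalised. The offset pulls dim miRNAs towards 0 difference. A miRNA detected on 1 of the arrays compared gives a bound, against the higher of its own and the lowest detected level of the other array. The number of arrays limits the precision. The procedure was tested on simulated data drawn from the WT_salt array alone, so the real differences between the arrays were not simulated. Of 13 alternatives, 6 changed the scaling between arrays and 1 used the authors' table, and others changed background, offset, spot averaging, detection and the probes normalised. The change of detection leaves the size of each difference as it was, so its agreement there was fixed in advance. Quantile normalisation over the detected miRNAs keeps the ranks of bright miRNAs, so its agreement for miR173 and miR390a is not separate either.

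Named were the 3 members, list miRNAs detected on at least 1 array, related sequences (at most 5 mismatches over at least 19 bases) and the 3 nearest profiles of each member detected on all arrays. Members, lists and rules were chosen with earlier results of these data known. Gene names came from RefSeq's TAIR10.1 table.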

Additional observations from a re-analysis of the deposited data

Results flagged for a closer look

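The measured salt response of miR391 ran opposite ways in the genotypes: 0.30 in ABR17 plants and −0.62 in wild type on the normalised log2 scale. The difference between these responses was not tested, since each group has 1 array. Each response has an array on which miR391 was not detected, and on ABR17_control its spots averaged 104 against a blank mean of 111. In the authors' deposited values the responses were 1.30 and −1.84 in the same order. With scaling on 5S rRNA both were negative, at −0.09 in ABR17 plants and −1.67 in wild type.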

How the results depend on the processing

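No paired analysis was possible because each group has 1 array. No member was counted in any comparison after quantile normalisation. For salt in wild type, 1 was counted with the blank mean subtracted, without normalisation and in the authors' deposited values (each time miR391, lower), and 2 with 5S rRNA scaling (miR390a and miR391, lower). Without normalisation 1 (miR390a, lower) was counted for the transgene without salt. The authors' deposited values gave 1 for salt in ABR17 plants (miR173, higher) and 1 for the transgene under salt (miR391, higher). These 2 counts rest on size alone, and after quantile normalisation the repeat spots overlapped in both. For the difference of salt responses, 2 (miR173 and miR390a) passed the size of 1 without normalisation and with 5S rRNA scaling. The cause of these changes was not tested. The change of miR173 over miR390a moved to 0.010 after quantile normalisation for salt in wild type. For the transgene without salt it was −0.13 with cyclic loess, −0.20 after quantile normalisation and −0.20 in the authors' deposited values. These alternatives for the ratio were chosen after seeing the data. Of 626 other values under the alternatives, 413 moved by less than the SD of repeat spots. Among the 413 are those of the detection setting, which cannot move. They also hold the values of miR173 and miR390a under quantile normalisation of the detected miRNAs, which repeat the main values. Signal over background limited miR391, detected on 2 arrays at 3 blank SD and on ABR17_salt alone at 6. Each comparison with WT_control rests on that array.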
